A study of Homo sapiens with 160 samples.

Results

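Mometasone furoate, an inhaled glucocorticoid, was given at 100 nM for 6 h to cells that also received carbachol, and its effect was measured against carbachol given alone. The 5 libraries of mometasone with 10 µM carbachol at 6 h were compared with the 5 libraries of 10 µM carbachol at 6 h. These 10 are part of 150 libraries whose values were used, out of 160 samples in the series. The members were chosen by treatment and time in the column headers, and same-numbered libraries, 1 to 5, were set side by side, although the labels do not say what a number marks. All cells were wild-type BEAS-2B cells, a human bronchial epithelial line that was immortalised with a viral T antigen and is grown as a single cell type without the ciliated and mucus-making cells of an airway. They had reached confluence and spent a night without serum before treatment. Carbachol is a stable agonist of acetylcholine receptors. Other libraries used here held 100 nM mometasone alone or vehicle at 6 h (5 each), the same carbachol comparison at 1 and 2 h (5 libraries a group), and at 18 h (4 libraries with mometasone, 5 without). The series also has groups with 100 nM indacaterol, a β2-adrenoceptor agonist, which entered the statistical model only.

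The glucocorticoid receptor, encoded by NR3C1, rests in the cytoplasm with heat shock chaperones. Once it binds a steroid it enters the nucleus, where it raises some genes by binding DNA and lowers others, many of which depend on NF-κB and AP-1. In airway epithelium it is known for raising genes that limit inflammation, such as TSC22D3, DUSP1 and NFKBIA, and for lowering cytokine genes. Carbachol acts on muscarinic receptors, of which CHRM3 couples to Gq and calcium release. Which receptor it acted through in these cells was not tested.

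Values per gene were those the authors deposited, named TPM by them, a scale of abundance per length. A library of the 10 held between 12541 and 12926 genes at a value of 1 or more, and its 13 mitochondrially encoded genes made up 8.38 to 14.1% of the summed value. That share was 1.10 percentage points higher with mometasone, a difference smaller than its spread (two-sided exact permutation test, p = 0.452). Read depth is unknown, and whether replicates came from separate cultures is not given in the labels. The p-values of the model therefore reflect only how far the 150 libraries scatter within their 32 groups, which may be technical. They do not measure the scatter of the 10 libraries alone. Of 16 epithelial markers 13 passed the filter on low values (a value of 1 or more in at least 5 of the 150 libraries), 2 of them called higher and 1 lower, and their summed value was 1006 to 1400 with mometasone and 1235 to 1636 without. KRT8, KRT18 and KRT17 had means from 283 to 507 in both groups, while EPCAM, TP63, ESRP1 and KRT14 stayed at 0.63 or lower in all 10 libraries. Of 12 fibroblast and mesenchymal markers 10 passed, and 1, COL3A1, was called lower, a call lost with only the compared groups in the model. VIM, COL1A1, PDGFRB and THY1 stood at 93.9 or higher in each library, and CDH2 and TWIST1 at 33.1 or higher. COL1A2, DCN and FAP had means from 1.21 to 2.24, and COL3A1 had 0.79 with mometasone and 1.42 without. PDGFRA and LUM did not pass. The 8 ciliated markers, of which 3 passed and 1, DNAH5, was called lower (a call lost under 6 of 16 alternative settings), summed to 13.2 to 18.4 with mometasone and to 8.36 to 13.2 without, and the part of these markers in the results was not tested. None of the 8 secretory markers passed the filter, the ciliated marker FOXJ1 stayed at 0.07 or lower, and 3 of 10 immune and 1 of 8 endothelial markers passed, none of them called. Other epithelial markers split too. ITGB4 had means of 220 with mometasone and 80.6 without, and ITGA6 25.1 and 32.9. KRT19 was at 0.706 and 0.714, and KRT5 at 4.52 and 0.34. The labelled cell type thus rests on part of the epithelial list, which does not include EPCAM, TP63 or ESRP1.

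Mometasone changed 1493 of 14827 genes in carbachol-treated cells at 6 h. Of these, 830 rose and 663 fell, at an adjusted p below 0.05 in limma with Benjamini-Hochberg adjustment, or 10.1% of the genes tested (5.6% higher, 4.47% lower). A change of at least 2-fold was reached by 259 genes that rose and 109 that fell, and one of at least 4-fold by 64 and 12. In 782 of the 830 and 642 of the 663 all 5 same-numbered pairs differed in the direction of the call. The pairs hold the same libraries as the calls, so this is no independent evidence. The values of the groups did not overlap in 642 of the genes called higher and 505 of those called lower, and in 10.2% of all genes tested. Without the libraries of replicate 2 the count fell to 916. With the replicate number as a block in the model it was 3723, 1842 higher and 1881 lower, so the excess of rises was not kept.

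The 2-fold rises began from lower levels than the falls, a difference that the scale and the filter on low values both favour. Genes that rose at least 2-fold had a median carbachol mean of 4.67, those that fell at least 2-fold 17.7, and all genes tested 13.9. Of the 259 genes that rose at least 2-fold, 59 had a carbachol mean below 1 and 6 had a mean of 100 or more. Among the 109 falls these numbers were 0 and 10. On the log2(value + 1) scale used here a low gene cannot show a large fall, so the 0 was fixed in advance. The change of low genes is understated in either direction. A gene low with carbachol could also pass the filter through mometasone libraries alone, as 5 of 150 libraries sufficed. Protein-coding genes made up 97.1% of called-higher and 98.3% of called-lower genes with an annotation, and 91.6% of those tested.

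**Figure D1:**
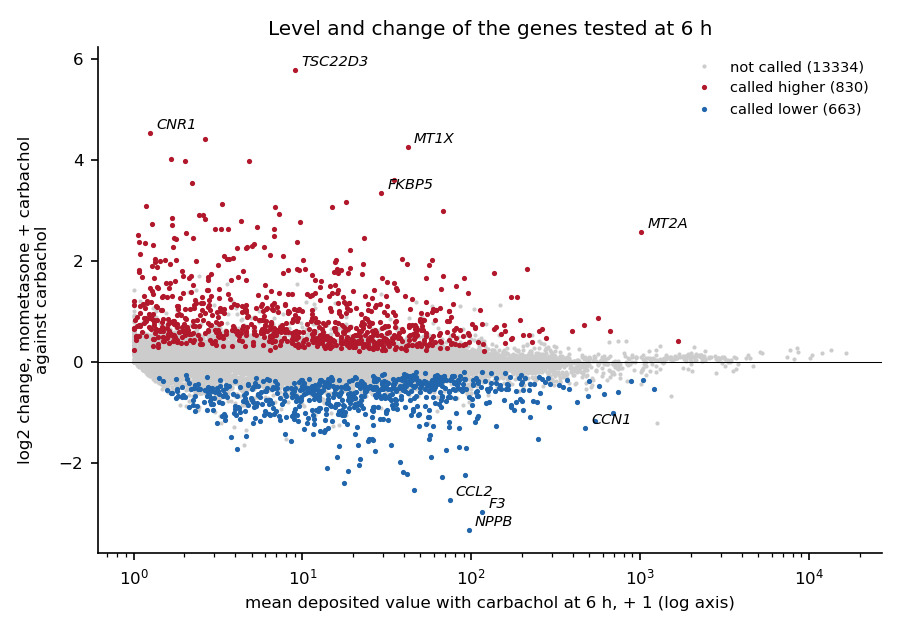
Mean value with carbachol alone plus 1 (log axis) against the log2 change with mometasone at 6 h for the 14827 genes tested; each point is a gene, coloured by its call in limma. The 830 genes called higher spread down to the lowest levels, and the largest falls, NPPB, F3 and CCL2, lie at carbachol means of 95.5, 115 and 73.4. On this scale low genes cannot show a large fall.

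The largest rise was in TSC22D3, which encodes GILZ, a leucine zipper protein that restrains NF-κB and AP-1 (GRCh38 chromosome X, 107713221 to 107777342, minus strand). In replicates 1 to 5 it stood at 443, 559, 450, 564 and 460 with mometasone and at 7.79, 8.69, 7.97, 8.88 and 6.86 with carbachol alone. The lowest mometasone library was far above the highest carbachol library, and the rise on values plus 1 was 54.8-fold (log2 change 5.78, SE 0.22, adjusted p = 1.86e-47). FKBP5, a co-chaperone that lowers the receptor's affinity for steroid (chromosome 6, 35573585 to 35728583, minus strand), stood at 312, 246, 334, 306 and 271 against 29.6, 30.6, 25.5, 30.6 and 24.7. Its groups did not overlap either, and it rose 10.1-fold (log2 3.33, SE 0.16, adjusted p = 7.31e-39).

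Several of the largest rises were in genes that were nearly silent without mometasone. CNR1, the cannabinoid receptor CB1 (chromosome 6, 88139864 to 88166359, minus strand), stood at 30.3, 21.5, 46.2, 25.8 and 19.8 with mometasone and at 0.56 or lower in each carbachol library (log2 4.52, SE 0.24, adjusted p = 3.65e-35). CYP4B1, a cytochrome P450 enzyme of the airway (chromosome 1, 46757838 to 46819413, plus strand), stood at 47.1 to 72.5 against 1.09 to 2.42 (log2 4.41, SE 0.24). MARCHF10, a ubiquitin ligase gene, had means of 25.6 and 0.666 (log2 4.01), and RGCC, a cell cycle regulator, 30.7 and 1.01 (log2 3.97). None of these groups overlapped.

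IP6K3, an inositol hexakisphosphate kinase, rose from 1.22 ± 0.678 to 24.4 ± 3.87 (SD, n = 5 each). CACNA2D3, a calcium channel subunit and also among the 14 largest rises, had means of 9.23 and 0.188 (log2 3.08, and 5.04 with a pseudocount of 0.1). MAOA, which degrades serotonin and noradrenaline, rose from 5.84 ± 2.37 to 54.2 ± 15.1 (SD, n = 5 each; log2 3.06). MT1X, MT1E, SAA1 and CEBPB, also among the 14, are described with their groups.

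The largest fall was in NPPB, which encodes the natriuretic peptide BNP (chromosome 1, 11857464 to 11858931, minus strand). It stood at 7.04, 12.8, 6.71, 9.85 and 7.40 with mometasone and at 72.1, 101, 108, 100.1 and 96.3 with carbachol alone, a 10.1-fold difference without overlap (log2 -3.33, SE 0.25, adjusted p = 1.44e-22). TNFRSF11B, the decoy receptor osteoprotegerin, fell from 44.5 ± 13.3 to 6.82 ± 1.89 (SD, n = 5 each; log2 -2.53). HTR1D, a serotonin receptor, stood at 2.57 to 3.70 against 15.3 to 19.9 (log2 -2.16). VGLL2, a TEAD cofactor, and ENC1, an actin-binding adaptor of ubiquitin ligases, fell by 2.10 and 2.04 on the log2 scale. F3, CCL2, NOG, FOSL1, JUN and IER3, also among the 12 largest falls, are described with their groups.

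**Figure D2:**
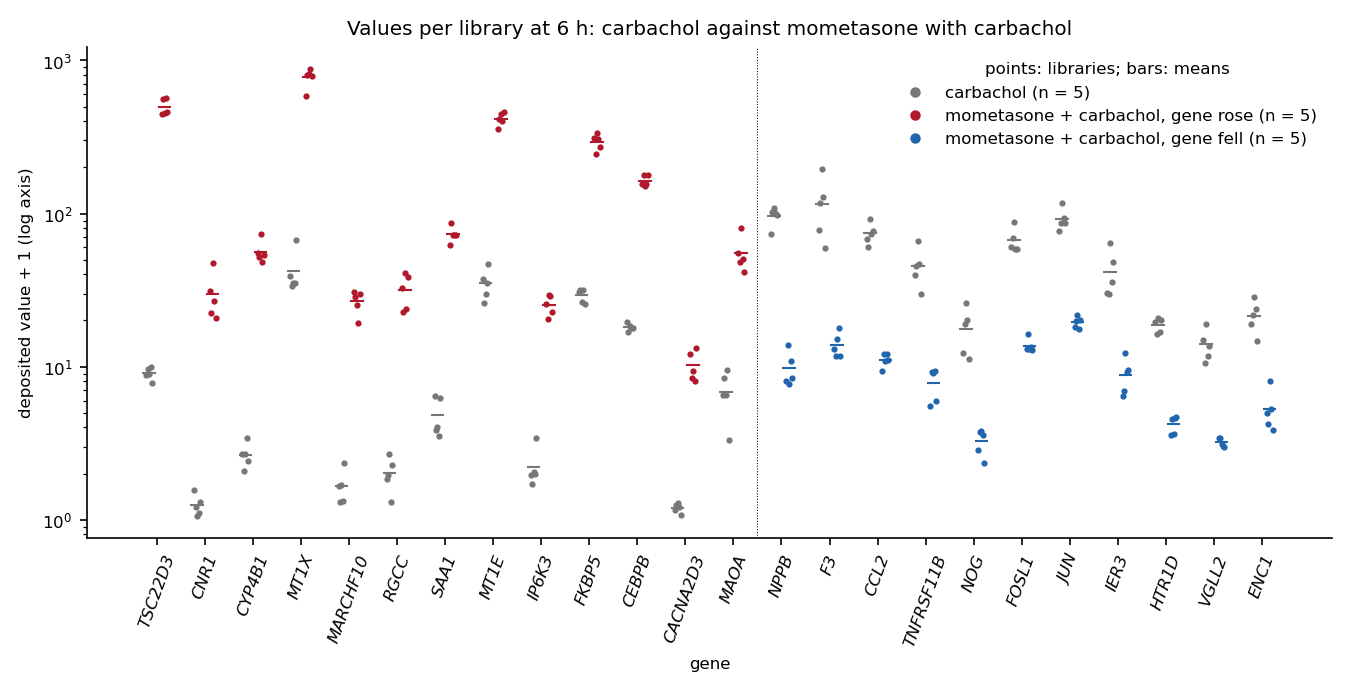
Deposited value plus 1 (log axis) of each of the 10 libraries for 13 of the 14 genes with the largest rise and 11 of the 12 with the largest fall at 6 h; points are libraries, bars group means. In none of these 24 genes do the 5 libraries with mometasone overlap the 5 with carbachol alone.

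Of 33 listed glucocorticoid target genes tested, 30 rose and none fell, with a median log2 change of 2.02 beside 0.01 over all genes tested. The list was drawn up with earlier results of these samples known. The counts of this list and those below stand beside shares over all genes tested of 5.6% called higher and 4.47% called lower. ANGPTL4, TNFAIP3 and KLF6 were not called. PER1, a repressor of the circadian clock, stood at 127, 133, 122, 111 and 116 with mometasone and at 12.4, 16.9, 10.6, 14.2 and 15.3 without (log2 3.06, SE 0.16, adjusted p = 4.69e-35). DUSP1, the phosphatase that switches off p38 and JNK, stood at 180, 188, 283, 221 and 214 against 52.7, 52.5, 94.0, 69.3 and 65.6. The replicate 3 library was highest in both groups, and DUSP1 rose 3.25-fold (log2 1.70, SE 0.18, adjusted p = 1.68e-14). ZFP36, which destabilises cytokine mRNAs, rose by 1.61 on the log2 scale (means 35.2 and 10.9), and CDKN1C, the cell cycle inhibitor p57, by 2.64 (means 19.9 and 2.32).

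The receptor itself fell while its feedback inhibitor FKBP5 rose. NR3C1 (chromosome 5, 143277931 to 143435512, minus strand) stood at 21.3, 17.6, 36.2, 22.6 and 17.7 with mometasone and at 41.7, 50.6, 49.3, 49.8 and 28.8 with carbachol alone. It was lower in 5 of 5 pairs, but the groups overlapped, because replicate 3 with mometasone exceeded replicate 5 without (log2 -0.93, SE 0.29, adjusted p = 0.0218). The call was lost without replicate 1 (adjusted p = 0.0969), replicate 2 (0.262) or replicate 4 (0.128), and with each library scaled to the same sum (0.0944). Of the 14 receptor and chaperone genes tested 2 rose and 5 fell. The other falls were in the heat shock chaperones and co-chaperones DNAJA1 (means 106 and 184), HSP90AA1 (489 and 737), STIP1 (113 and 164) and FKBP4 (45.8 and 59.8). NCOA3, a receptor coactivator, was the second rise (26.4 ± 6.70 against 14.7 ± 3.06, SD, n = 5 each, adjusted p = 0.0418), a call lost under 6 of 16 alternative settings. The mineralocorticoid receptor NR3C2, which mometasone can also bind, was at 0.992 ± 0.129 and 1.59 ± 0.519 (SD, n = 5 each) and was not called.

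Metallothioneins, small proteins that bind zinc and copper, were a second group with large rises, and they lie side by side on chromosome 16. MT1X stood at 588, 802, 821, 874 and 790 with mometasone and at 38.4, 32.7, 34.0, 33.9 and 66.4 without (log2 4.25, SE 0.31, adjusted p = 6.60e-24). MT2A stood at 4758, 6109, 6317, 5970 and 6639 against 809, 980, 935, 918 and 1407 (log2 2.58, SE 0.25, adjusted p = 1.08e-15). In both genes replicate 1 was the lowest library with mometasone and replicate 5 the highest without, and the groups stayed apart. MT1E rose from 34.0 ± 7.85 to 414 ± 40.3 (SD, n = 5 each; log2 3.59), MT1F from a mean of 7.25 to 19.4, and MT1M from 0.292 ± 0.486 to 4.49 ± 3.44, with 3 carbachol libraries listed at 0 and overlapping groups (log2 1.89, and 3.94 with a pseudocount of 0.1). Of 7 metallothioneins tested, 5 rose and MT1A and MT1L were not called. These genes are close copies of each other, so reads could have been divided between them in counting.

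The promoters of MT1X and MT2A are shown because both genes rose together and their promoters carry several copies of the metal response core. They run from 250 bases before to 50 after the start in RefSeq (GRCh38.p14), 5′ to 3′, at chr16:56682220-56682519 and chr16:56608334-56608633 on the plus strand. Capitals mark TGCACNC or TGCGCNC on either strand, where N is any base.
MT1X: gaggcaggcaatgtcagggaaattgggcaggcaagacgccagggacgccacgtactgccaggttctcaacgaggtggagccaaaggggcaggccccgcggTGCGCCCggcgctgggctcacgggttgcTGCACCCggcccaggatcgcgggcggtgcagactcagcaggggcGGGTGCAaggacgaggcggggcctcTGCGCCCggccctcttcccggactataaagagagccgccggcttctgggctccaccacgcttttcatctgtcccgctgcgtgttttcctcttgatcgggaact
MT2A: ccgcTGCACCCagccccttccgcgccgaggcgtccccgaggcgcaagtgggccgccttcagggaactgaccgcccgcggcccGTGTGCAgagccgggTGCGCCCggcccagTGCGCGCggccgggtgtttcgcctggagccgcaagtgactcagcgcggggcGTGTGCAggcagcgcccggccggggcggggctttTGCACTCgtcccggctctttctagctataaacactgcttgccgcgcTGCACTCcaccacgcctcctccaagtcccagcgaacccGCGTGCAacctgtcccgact
MT1X had 4 matches and MT2A 8, and at least 1 match was present in 29.3% of the 27305 promoters of this length, 38.3% of those of the genes tested, 32.8% of those of genes that rose at least 2-fold and 36.8% of those that fell at least 2-fold. Such a match is a description of the letters. The full glucocorticoid response element, AGAACA, any 3 bases and TGTTCT, was also searched on both strands with at most 2 mismatches. It was found in none of the 11 promoters that could be read among the 14 largest rises, in 3 of 198 among genes that rose at least 2-fold (1.52%) and in 2 of 68 among genes that fell at least 2-fold (2.94%). It was present in 0.525% of the promoters of the genes tested and in 1.44% of all promoters. No match says only that these letters are absent from this window.

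Of 17 KLF and C/EBP transcription factor genes tested 5 rose and 3 fell. CEBPB, a basic leucine zipper factor of the acute phase response (chromosome 20, 50190734 to 50192689, plus strand), stood at 155, 178, 150, 154 and 176 against 18.5, 15.9, 17.4, 17.0 and 17.0 (log2 3.17, SE 0.24, adjusted p = 9.03e-23). The libraries lay close together within each group and far apart between the groups. KLF15 (means 29.4 and 3.35), KLF9 (23.7 and 4.04), CEBPD (90.5 and 28.4) and KLF4 (2.10 and 0.82) also rose. The 3 that fell were KLF2 (log2 -0.83), KLF16 (-0.43) and CEBPG (-0.35).

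Circadian clock genes split. Of 18 tested 7 rose and 2 fell. Beside PER1 these were NPAS2, a partner of BMAL1 (28.2 ± 9.65 against 10.3 ± 1.62, SD, n = 5 each), NFIL3, a repressor of D-box genes (29.5 ± 4.03 against 13.5 ± 1.93, SD, n = 5 each), TEF, CRY2, CIART and HLF, the last 4 by 0.62 to 1.04 on the log2 scale. BHLHE40, a repressor of PER1, fell from 14.3, 36.7, 23.4, 39.4 and 14.9 to 5.00, 9.48, 5.47, 9.23 and 3.86 in replicates 1 to 5 (log2 -1.76, SE 0.34, adjusted p = 3.32e-05). Replicates 2 and 4 were the highest in both groups. CRY1 fell by 0.74 on the log2 scale, and CLOCK, ARNTL, PER2, PER3 and the NR1D genes were not called.

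Of 11 cytokine and chemokine genes tested, 4 fell and none rose. CCL2, the monocyte chemoattractant (chromosome 17, 34255218 to 34257203, plus strand), stood at 8.39, 11.1, 9.95, 11 and 10 with mometasone and at 66.9, 59.8, 91.2, 72.7 and 76.4 without (log2 -2.74, SE 0.19, adjusted p = 1.35e-24). IL6 stood at 0.47, 0.13, 0.21, 0 and 0.26 against 2.22, 1.97, 5.52, 3.39 and 2.53 (log2 -1.72, SE 0.23, adjusted p = 1.25e-09). Neither gene's groups overlapped. With a pseudocount of 0.1 the log2 change of IL6 was -3.47. IL11 fell from 16.5 ± 6.13 to 6.71 ± 2.16 and LIF from 2.44 ± 0.874 to 0.66 ± 0.167 (SD, n = 5 each), the latter by 1.70 on the log2 scale with the smaller pseudocount. CXCL1, CXCL2, CCL5, CCL20, CSF1, IL32 and IL33 were not called, and 13 listed cytokine genes did not pass the filter.

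Of 15 NF-κB genes tested 2 rose and 1 fell, where 5.6% of all genes tested were called higher and 4.47% lower. NFKBIA, the inhibitor IκBα (chromosome 14, 35401511 to 35404749, minus strand), stood at 82.0, 73.3, 99.9, 84.0 and 94.0 against 21.5, 21.0, 24.3, 18.6 and 23.2 (log2 1.94, SE 0.11, adjusted p = 1.04e-33). BIRC3, an inhibitor of apoptosis that NF-κB also induces, rose from 8.72 ± 1.79 to 64.1 ± 4.05 (SD, n = 5 each; log2 2.76). BCL3, a nuclear cofactor of NF-κB, fell from 7.87 ± 0.642 to 3.12 ± 0.679 (SD, n = 5 each; log2 -1.12). The other 12 genes were not called. The subunit RELB, at log2 -0.64 (adjusted p = 0.0668), was called lower with only the compared groups in the model (0.018) or only the libraries of the compared times (0.00894). It was also called with each library scaled to the same sum (0.0151) and with the replicate number as a block (0.000194).

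Of 18 AP-1 and early response genes tested 4 fell and 1 rose. JUN (chromosome 1, 58780788 to 58784327, minus strand) stood at 17.0, 18.9, 20.7, 16.6 and 19.0 against 75.4, 85.9, 116, 91.8 and 85.5 (log2 -2.23, SE 0.24, adjusted p = 1.01e-13). FOSL1, the subunit Fra-1, fell from 65.9 ± 12.3 to 12.7 ± 1.49, and IER3, an early response gene, from 40.7 ± 14.8 to 7.84 ± 2.30 (SD, n = 5 each; log2 -2.27 and -2.21). None of these 3 genes had overlapping groups. SRF fell by 0.50 on the log2 scale, and FOSL2, the subunit Fra-2, rose by 0.80. The other 13 were not called, among them FOS, FOSB, JUNB and JUND. EGR1 was at 9.84 ± 2.10 and 18.5 ± 5.14 (SD, n = 5 each, adjusted p = 0.491) and was lower in 5 of 5 pairs. It was called with only the compared groups in the model (0.0427) and with the replicate number as a block (0.00197).

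Of 14 coagulation and plasminogen genes tested 2 rose and 5 fell. F3, tissue factor, which starts coagulation (chromosome 1, 94529225 to 94541800, minus strand), stood at 11.9, 10.8, 14, 16.8 and 10.7 with mometasone and at 77.5, 115, 194, 128 and 58.8 without (log2 -2.96, SE 0.30, adjusted p = 4.92e-15). Replicate 3 was the highest without mometasone, and the groups did not overlap. THBD, thrombomodulin, rose from 1.82 ± 0.373 to 5.57 ± 1.10 (SD, n = 5 each). The activator PLAU, its receptor PLAUR, TFPI2 and SERPINB2 fell by 0.61 to 0.72 on the log2 scale. SERPINB2 was near the floor, with means of 0.058 with mometasone and 0.784 without, so its change is understated on this scale. PLAT, tissue plasminogen activator, was at 57.6 ± 11.9 and 32 ± 10.3 (SD, n = 5 each) and was not called (adjusted p = 0.078). It was called higher with only the compared groups in the model (0.0329) or only the libraries of the compared times (0.0249). With the replicate number as a block it was called too (2.22e-06).

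The promoters of F3 and IL6 are shown as 2 genes that fell and carry letters of the AP-1 or NF-κB site. These 2 motifs and the metal response core were chosen after the values were seen. Capitals mark TGANTCA in F3 (chr1:94541710-94542009, minus strand) and GGG, any 2 bases and TTTCC in IL6 (chr7:22726950-22727249, plus strand), searched on both strands of the RefSeq windows of GRCh38.p14.
F3: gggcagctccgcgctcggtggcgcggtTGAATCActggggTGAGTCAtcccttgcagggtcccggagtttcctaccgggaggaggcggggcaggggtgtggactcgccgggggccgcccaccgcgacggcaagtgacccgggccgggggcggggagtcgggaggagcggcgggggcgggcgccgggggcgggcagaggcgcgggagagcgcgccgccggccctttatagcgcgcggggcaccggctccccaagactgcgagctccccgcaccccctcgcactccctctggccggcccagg
IL6: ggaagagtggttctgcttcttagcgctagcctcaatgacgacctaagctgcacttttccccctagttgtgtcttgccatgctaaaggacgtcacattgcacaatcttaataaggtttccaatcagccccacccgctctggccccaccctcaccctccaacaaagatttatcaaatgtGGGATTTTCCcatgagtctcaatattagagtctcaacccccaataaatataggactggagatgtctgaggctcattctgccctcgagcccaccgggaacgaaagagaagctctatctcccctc
The AP-1 letters begin 223 and 210 bases before the start of F3, and the NF-κB letters 73 bases before that of IL6. Among other falls, TGANTCA was found in the windows of IL11 and PLAUR. It was not found in those of IL6 and JUN, and the NF-κB letters were not found in that of F3. TGANTCA was present in 8 of 68 promoters of genes that fell at least 2-fold (11.8%), 9 of 198 of those that rose at least 2-fold (4.55%), 4.55% of the genes tested and 7.76% of all promoters. The NF-κB letters were present in 1 of the 68, 5 of the 198 and 1.92% of all promoters. Of the 12 largest falls 4 had a promoter in the RefSeq table used.

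Of 16 phosphatases and feedback inhibitors of MAP kinases tested 2 rose and 4 fell. ERRFI1, an inhibitor of EGF receptor signalling, rose from 17.5 ± 5.90 to 60.5 ± 13.9 (SD, n = 5 each; log2 1.77), beside DUSP1. DUSP8, DUSP14, DUSP5 and DUSP4 fell by 1.20, 1.09, 0.89 and 0.81 on the log2 scale. SPRY and SPRED genes and DUSP6 were among the 10 genes not called.

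Of 18 muscarinic and Gq signalling genes tested 3 rose and 4 fell, where 5.6% of all genes tested were called higher and 4.47% lower. CHRM3, the muscarinic receptor with the highest value here, stood at 0.92, 1.12, 0.75, 1.05 and 0.90 with mometasone and at 2.05, 1.53, 1.57, 2.06 and 1.91 without (log2 -0.53, SE 0.15, adjusted p = 0.00798). The groups did not overlap, although the call was lost without replicate 1 (adjusted p = 0.0514), and with a pseudocount of 0.1 the log2 change was -0.88. CHRM1, CHRM2, CHRM4 and CHRM5 had means of 0.552 or lower and did not pass the filter. PLCB4, a phospholipase C that Gq activates, rose from 22.6 ± 6.50 to 57.6 ± 19.0 (SD, n = 5 each; log2 1.30). Of the RGS genes, which end G protein signalling, RGS2 rose from 7.20 ± 0.493 to 15.2 ± 2.28 (SD, n = 5 each), and RGS3 fell from 13.9 ± 0.664 to 5.75 ± 1.16 (SD, n = 5 each). PRKCD, a protein kinase C, rose by 0.52, and RGS20 and RGS4 fell by 0.47 and 0.67, all on the log2 scale. The RGS4 call was lost under 10 of 16 alternative settings, one of which, a pseudocount of 0.1, gave a log2 change of -1.21.

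Genes that earlier results of this series gave as raised by carbachol at 1 or 2 h responded to mometasone unevenly at 6 h. Carbachol was not compared with vehicle at 1 or 2 h here. This list of 13 tested genes was chosen on the same series and is no independent evidence. PER1, LURAP1L (2.22 ± 0.554 to 6.72 ± 1.11, SD, n = 5 each), GADD45A (71.1 ± 7.76 to 125 ± 9.68, SD, n = 5 each) and CCN2 rose. DUSP5, MIDN and HBEGF fell, and NR4A1, FOSB, NAB2, IER2, JUNB and RNF227 were not called. At 6 h carbachol alone against vehicle gave no called gene in limma. An unadjusted p under 0.05 was reached by 124 genes, a smaller share than the 0.05 that chance alone would give. Differences may therefore have been missed.

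Of 12 genes of lipid mediator synthesis and reception tested 3 rose and none fell. PLA2G4A, the cytosolic phospholipase that frees arachidonic acid (chromosome 1, 186828953 to 186988981, plus strand), stood at 11.1, 7.54, 14.6, 7.94 and 9.94 with mometasone and at 0.98 or lower in each carbachol library (log2 2.71, SE 0.15, adjusted p = 8.44e-33). ALOX5AP, the protein that presents arachidonic acid to 5-lipoxygenase, stood at 3.33 to 7.58, while 3 of the carbachol libraries were listed at 0 and the highest was at 0.16 (log2 2.52, SE 0.21, and 5.16 with a pseudocount of 0.1). PTGER4, the prostaglandin receptor EP4, rose from 2.24 ± 0.736 to 5.81 ± 1.79 (SD, n = 5 each). The other 9 genes were not called, among them PTGS2, which encodes cyclooxygenase-2, and PTGES. PTGES was called higher without replicate 5 (adjusted p = 0.0158), with each library scaled to the same sum (0.0463) and with the replicate number as a block (4.42e-05).

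PLA2G4A was 1 of the 3 genes with a rise of at least 2-fold whose promoter held a glucocorticoid response element within 2 mismatches, so its window is shown (chr1:186828699-186828998, plus strand, RefSeq, GRCh38.p14). Capitals mark the match, which begins 90 bases before the start.
PLA2G4A: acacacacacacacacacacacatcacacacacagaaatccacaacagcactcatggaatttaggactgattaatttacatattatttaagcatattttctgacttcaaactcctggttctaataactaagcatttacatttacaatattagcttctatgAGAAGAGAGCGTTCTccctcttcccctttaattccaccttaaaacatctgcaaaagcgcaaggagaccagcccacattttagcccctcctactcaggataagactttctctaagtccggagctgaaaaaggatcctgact

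Of 14 ion transport genes tested 3 rose and 3 fell. SCNN1A, the α subunit of the epithelial sodium channel (chromosome 12, 6346843 to 6377730, minus strand), stood at 18.8, 15.5, 28.0, 12.5 and 15.5 against 1.55, 3.04, 0.84, 0.75 and 1.68 (log2 2.91, SE 0.28, adjusted p = 1.86e-16). SGK1, the kinase that keeps this channel at the membrane, rose from 15.1 ± 4.57 to 40.3 ± 11.4 (SD, n = 5 each). NEDD4L, the ubiquitin ligase that removes the channel, stood at 16.4 to 23.1 against 42.7 to 53.1 (log2 -1.27, SE 0.11, adjusted p = 1.69e-18). AQP5, a water channel, fell by 0.69 on the log2 scale. SLC12A2, a chloride cotransporter, fell (adjusted p = 0.0236), a call lost without replicate 1 (0.0861), 2 (0.28) or 4 (0.161) and with each library scaled to the same sum (0.109).

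Defence and acute phase genes rose in 3 of 13 cases and none fell. SAA1, serum amyloid A (chromosome 11, 18266174 to 18269977, plus strand), stood at 61.7, 85.5, 71.1, 71.8 and 71.9 against 5.39, 2.83, 3.05, 2.50 and 5.25 (log2 3.97, SE 0.38, adjusted p = 3.31e-16). SAA2, its near copy, rose from 0.376 ± 0.272 to 1.91 ± 0.424 (log2 1.09, and 2.36 with a pseudocount of 0.1), and DMBT1, a mucosal scavenger protein, from 2.56 ± 1.37 to 13.2 ± 4.76 (SD, n = 5 each). Reads of SAA1 and SAA2 could have been divided between the copies. C3, LCN2, SERPINA3 and CFB were among the 10 not called.

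Of 21 genes of glucose, lipid and insulin metabolism tested 10 rose and 2 fell, with a median log2 change of 0.30. They included PDK4, which keeps pyruvate from the citric acid cycle (0.17 ± 0.13 to 5.67 ± 3.75; log2 2.34, and 4.35 with a pseudocount of 0.1), FOXO1 (3.66 ± 0.497 to 21.7 ± 5.19), LPIN1, a phosphatidate phosphatase (37.7 ± 14 to 151 ± 33.3), and IRS2, a docking protein of the insulin receptor (9.09 ± 1.93 to 40.7 ± 13.9, all SD, n = 5 each). GLUL, DDIT4, ACSL1, FOXO3, PIK3R1 and PLIN2 rose by 1.02 to 1.97 on the log2 scale. The glucose transporters SLC2A3 and SLC2A1 fell from 23.5 to 6.92 and from 107 to 49.6.

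Cholesterol synthesis genes lay below 0 throughout but mostly did not pass the test. All 21 were tested, 5 fell, none rose, and the median log2 change was -0.43. INSIG1, which retains SREBP in the endoplasmic reticulum, had means of 227 ± 82.7 and 537 ± 266 (SD, n = 5 each; adjusted p = 0.00604), a call lost without replicate 2 (0.0513) and with only the compared groups in the model (0.0619). SREBF1, the SREBP-1 gene, fell by 0.59 on the log2 scale. IDI1 and MSMO1 fell by 0.88 and 0.80, with calls lost under 6 and 8 of 16 alternative settings. HMGCS1 stood at 377, 807, 395, 860 and 242 with mometasone and at 840, 2016, 953, 1948 and 520 without. Each pair was lower with mometasone, and replicates 2 and 4 were highest in both groups. HMGCS1 was not called (adjusted p = 0.0849), but was called without replicate 5 (0.0197) and with the replicate number as a block (2.6e-13).

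TGF-β and BMP genes fell more often than they rose, 8 against 2 of 20 tested, with a median log2 change of -0.39. NOG, the BMP antagonist noggin (chromosome 17, 56593699 to 56595590, plus strand), stood at 1.86, 2.72, 2.80, 2.59 and 1.35 against 11.2, 17.9, 25.0, 19.1 and 10.2 (log2 -2.39, SE 0.26, adjusted p = 4.00e-13). BMP4 stood at 24.5 to 31.9 against 79.3 to 120 (log2 -1.69, SE 0.16, adjusted p = 3.49e-16), so a ligand and its antagonist fell together. SMAD6, SMAD3, BMP6, TGFB2, FST and TGFB1 fell by 0.39 to 1.04. The 2 rises were in receptors, TGFBR3 (5.43 ± 1.76 to 26.6 ± 7.36, SD, n = 5 each) and TGFBR2 (means 17.1 and 40.3).

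Targets of YAP and SRF moved apart. ANKRD1, a muscle ankyrin repeat protein, and VCL, vinculin of focal adhesions, rose from 14.7 ± 2.94 to 62.8 ± 9.84 and from 52.8 ± 9.93 to 168 ± 34.3 (SD, n = 5 each). CCN1, a matricellular protein, stood at 152, 220, 204, 227 and 153 against 374, 506, 551, 554 and 382 (log2 -1.30, SE 0.20, adjusted p = 8.00e-08), and its neighbour in the family, CCN2, rose by 0.75 on the log2 scale. AJUBA and ACTN1 fell, giving 3 rises and 3 falls among 15 genes. Of 9 genes of the EGF receptor system, ERRFI1 and AREG rose, and ERBB3, TGFA and HBEGF fell. The call of TGFA (log2 -0.77) was lost without replicate 2 (adjusted p = 0.256) or 4 (0.102) and with each library scaled to the same sum (0.0709).

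Of 13 keratins tested 3 rose and 1 fell. Over all genes tested 5.6% were called higher and 4.47% lower, the shares beside which this list and the matrix list stand. KRT5 (0.34 ± 0.161 to 4.52 ± 2.03; log2 1.98, and 3.38 with a pseudocount of 0.1), KRT7 (9.35 ± 5.29 to 34.0 ± 13.7) and KRT86 rose and KRT80 fell (15.3 ± 3.33 to 7.04 ± 1.99, all SD, n = 5 each). The KRT7 call was lost without replicate 2 (adjusted p = 0.11) or 4 (0.0921). ITGB4, the β4 integrin of hemidesmosomes, had means of 220 ± 62.1 and 80.6 ± 38.3 (SD, n = 5 each), and its call (adjusted p = 0.0187) was lost without replicate 1, 2, 3 or 4, at 0.0581 to 0.216. Of 21 matrix and protease genes, FN1, fibronectin, rose from 558 ± 73.9 to 1024 ± 78.8 (SD, n = 5 each), and ADAMTS1, SPARC and COL3A1 fell, the last 2 with calls lost under 3 and 5 of 16 alternative settings. With a pseudocount of 0.1 the log2 change of COL3A1 was -0.76 in place of -0.43.

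Of 26 cell cycle genes 1 rose and 4 fell, where 5.6% of all genes tested were called higher and 4.47% lower. Such small counts are not read as a response of the list. CDKN1C rose as given above. CCND1, cyclin D1, stood at 10.4, 5.85, 10.4, 6.37 and 6.71 against 24.4, 22.6, 38.9, 19.6 and 19.3 (log2 -1.52, SE 0.17, adjusted p = 6.85e-13). AURKA (log2 -0.52, call lost without replicate 2 at an adjusted p of 0.0537), CDKN2C and BUB1 also fell, and MKI67, TOP2A and CDK1 were not called. Among 17 apoptosis regulators 5 rose. They were BIRC3, the pro-apoptotic BMF (1.78 ± 0.561 to 6.45 ± 1.58), and the anti-apoptotic CFLAR (19.7 ± 1.55 to 42.4 ± 5.70), BCL2L1 (84.7 ± 5.98 to 131 ± 9.68, all SD, n = 5 each) and BIRC2. BCL2 was the 1 that fell (log2 -0.59).

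Of 21 interferon-stimulated genes, IRF1 (25.1 ± 1.93 to 13.1 ± 1.23, SD, n = 5 each), IFIT3 and IFIT2 were among the 4 that fell, and none rose. Over all genes tested 4.47% were called lower and 5.6% higher. None of the 13 mitochondrially encoded genes and none of the 24 nuclear genes of oxidative phosphorylation was called, with median log2 changes of 0.18 and -0.02. A list of 14 genes that earlier results of this series gave as repressed had 10 falls, among them TM4SF1 (37.0 ± 6.81 to 8.86 ± 2.58), CPA4 (139 ± 42.4 to 55.7 ± 5.97) and PSG6 (6.37 ± 1.94 to 2.34 ± 0.867, all SD, n = 5 each). It was chosen on the same series and is no independent evidence, and the PSG genes are near copies of each other.

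**Figure D3:**
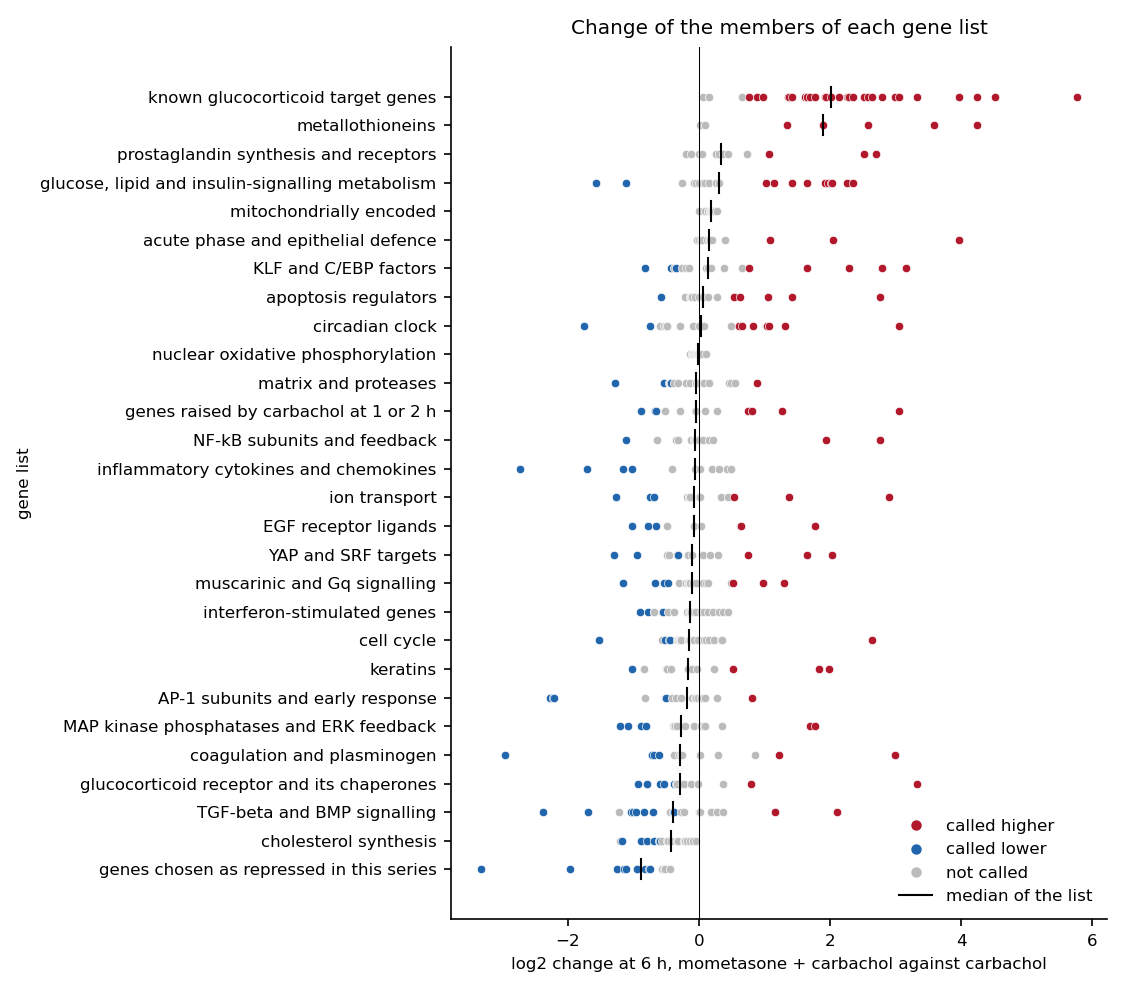
Log2 change at 6 h of each tested member of 28 gene lists, coloured by its call in limma, with the median of each list as a bar. The known glucocorticoid targets and metallothioneins have the highest medians, 2.02 and 1.89, and most other lists have medians near 0 with single members far out on both sides.

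The effect was set beside that of mometasone alone against vehicle, which rests on 10 other libraries at 6 h. Mometasone alone called 1425 genes (9.61%), 796 higher and 629 lower. Of these, 626 were also called higher with carbachol (75.4% of the 830 and 78.6% of the 796), 502 were also called lower (75.7% of the 663 and 79.8% of the 629), and 0 were called in opposite directions. With each library scaled to the same sum, 493 rose and 641 fell with mometasone alone, a share of 43.5% higher in place of 55.9%. Without the libraries of replicate 2 its count fell to 894.

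The test of the difference between the backgrounds called 0 of 14827 genes in limma (0% called), with a lowest adjusted p of 1. A blocked model, with the replicate number as a term, also called 0. An unadjusted p under 0.05 was reached by 105 genes, a smaller share than the 0.05 that chance alone would give. The unblocked test may therefore miss differences. Among the 1493 genes called with carbachol the absolute difference had a median of 0.08 and a 95th percentile of 0.33 on the log2 scale, and the 95% interval of the difference had a median half-width of 0.42. TSC22D3 had log2 changes of 5.78 with and 5.79 without carbachol, a difference of -0.01 with a 95% interval of -0.63 to 0.61. NPPB had -3.33 and -3.11 (difference -0.22, -0.92 to 0.49), CCL2 -2.74 and -2.35 (difference -0.39, -0.93 to 0.15) and IL11 -1.16 and -0.74 (difference -0.42, -1.22 to 0.37). For PER1 the difference was 0.13 (-0.32 to 0.58), for DUSP1 -0.25 (-0.75 to 0.24) and for CHRM3 -0.30 (-0.72 to 0.12). These intervals allow a difference of up to about the size of their bounds in each gene, and equality was not shown. Carbachol added to mometasone at 6 h likewise gave 0 called genes in limma. Again a smaller share than 0.05, 164 genes, had an unadjusted p under 0.05.

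**Figure D4:**
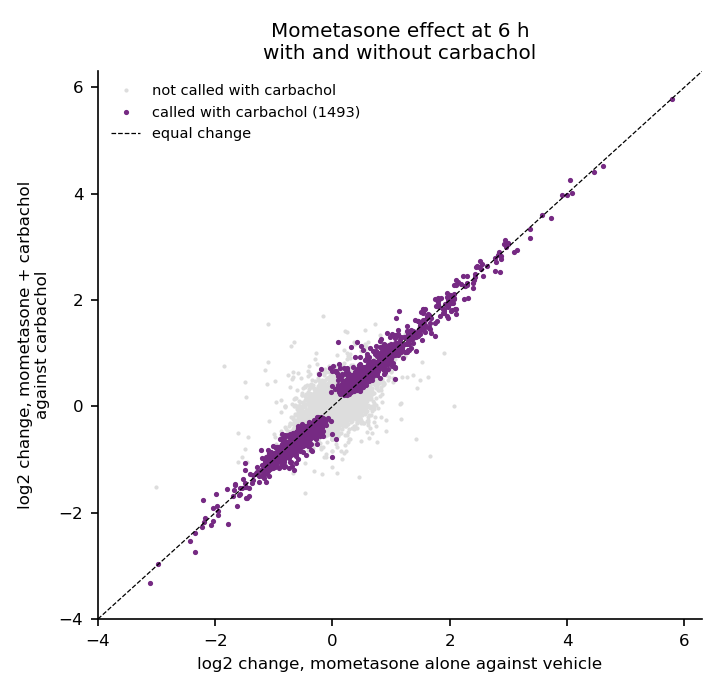
Log2 change with mometasone alone against vehicle (x axis) and with mometasone and carbachol against carbachol (y axis) at 6 h for each gene tested; purple points are the 1493 genes called with carbachol and the dashed line marks equal change. The called genes follow the line, with 0 called in opposite directions.

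Fewer genes were called at the earlier times in carbachol-treated cells. At 1 h 86 genes passed the test as higher with mometasone and 35 as lower, and at 2 h 233 and 93 (2.2% of genes tested). Of the 233 genes, 193 were also called higher at 6 h (82.8%, or 23.3% of the 830), and of the 93 lower genes 77 (82.8%, or 11.6% of the 663). The blocked model, with the replicate number as a term, called 864 genes at 2 h in place of 326, and a model of the compared groups alone 206. At 18 h 699 genes passed as higher and 841 as lower (10.4%), 1540 in all, and the blocked model 3451. Of these, 394 had also been called higher at 6 h (47.5% of the 830, 56.4% of the 699), and 406 lower (61.2% of the 663, 48.3% of the 841). Without the libraries of replicate 2 the count at 18 h was 985.

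The test of the difference between 6 and 2 h called 192 genes (1.29%), 120 with a more positive and 72 with a more negative change at 6 h. With each library scaled to the same sum it called 118, a share of positive differences of 73.7% in place of 62.5%. The blocked model called 1088, of which 469 were positive and 619 negative, so that the larger number was on the negative side (43.1% positive). Of the 120, 119 were called higher at 6 h, and of the 72, 61 were called lower. The 6 h libraries enter both the difference and the call, so this overlap is no independent evidence. CNR1 went from a log2 change of 1.55 at 2 h to 4.52 at 6 h (difference 2.97, adjusted p = 1.34e-11), and CACNA2D3 from 0.36 to 3.08 (difference 2.72, adjusted p = 1.69e-19). SH3RF3, a scaffold of JNK signalling, NKD1, an inhibitor of Wnt signalling, and FRZB, a secreted Wnt antagonist, were at 0.04, -0.01 and 0.08 at 2 h and at 2.04, 2.37 and 1.57 at 6 h. With a pseudocount of 0.1 the changes of NKD1 and FRZB at 6 h were 4.83 and 2.53. PLA2G4A went from 0.34 to 2.71, CYP4B1 from 1.35 to 4.41, SAA1 from 1.40 to 3.97 and FKBP5 from 1.56 to 3.33. Among the falls NPPB went from -0.69 to -3.33 and HTR1D from -0.62 to -2.16. For TSC22D3 (5.21 and 5.78), PER1 (2.87 and 3.06), CEBPB (3.07 and 3.17), DUSP1 (2.56 and 1.70) and NFKBIA (2.47 and 1.94) the difference was not called. Without the libraries of replicate 2 the count was 98.

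Between 18 and 6 h 149 genes differed (1%), 34 with a more positive and 115 with a more negative change at 18 h. Of the 115, 50 were called higher at 6 h. MT1X went from a log2 change of 4.25 at 6 h to 2.10 at 18 h (difference -2.14, adjusted p = 0.00124). UBE2QL1, a ubiquitin-conjugating enzyme gene, went from 2.32 (3.82 with a pseudocount of 0.1) to 0.17, SH3RF3 from 2.04 to 0.73, VCL from 1.65 to -0.12 and THBD from 1.22 to -0.12, each with a called difference. In another 17 genes an existing fall was deeper at 18 h, among them PSG5 (-0.77 and -2.76), DYSF, a membrane repair protein (-0.36 and -1.98), and KIRREL3, an adhesion molecule (-0.46 and -1.99). The call of DYSF at 6 h was lost without replicate 1, 2, 3 or 4 (adjusted p = 0.0527 to 0.0928), and that of KIRREL3 without replicate 2 (0.0855) and with each library scaled to the same sum (0.121). TRIM29, called higher at log2 0.40 at 6 h, was at -1.23 at 18 h, and its call at 6 h was lost under 11 of 16 alternative settings. SAA1 was at 3.97 and 5.58, a difference that was not called (adjusted p = 0.23). Without the libraries of replicate 2 the count was 74 and without those of replicate 4 it was 85.

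**Figure D5:**
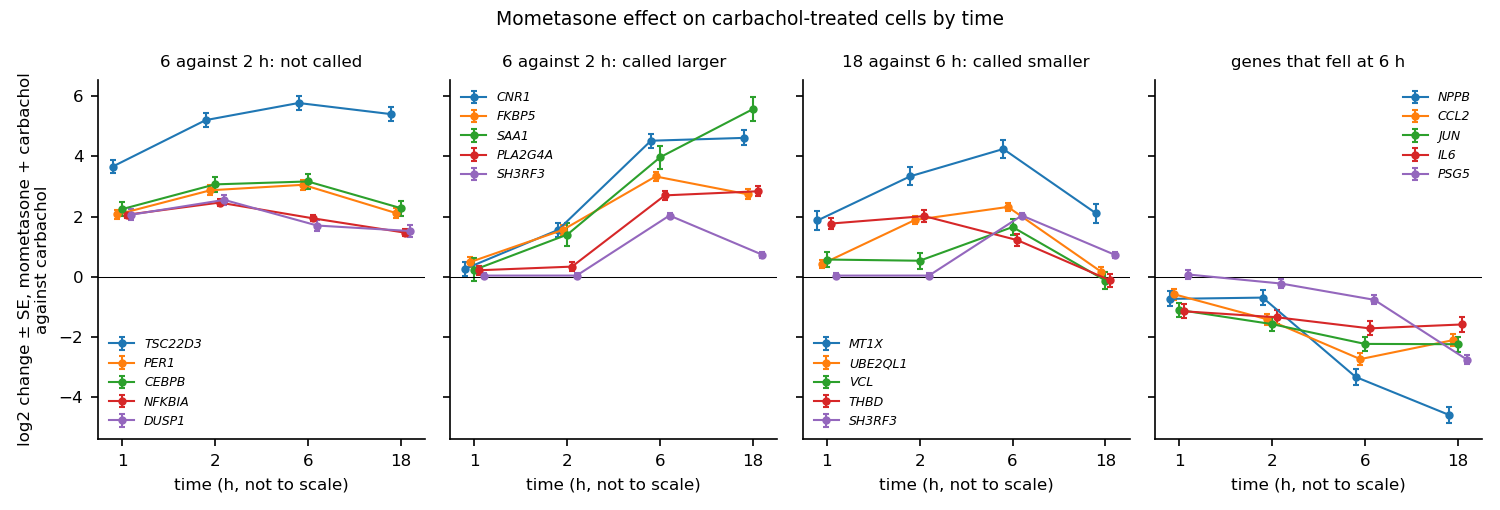
Log2 change (y axis, with SE) of mometasone on carbachol-treated cells at 1, 2, 6 and 18 h for genes whose difference between 6 and 2 h was not called, genes whose change was larger at 6 than at 2 h, genes whose change was smaller at 18 than at 6 h, and genes that fell at 6 h. TSC22D3 and PER1 are at 3.66 and 2.07 already at 1 h, while SH3RF3 is at 0.04 at 1 and 2 h and at 2.04 at 6 h.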

How the data were processed

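RNA of BEAS-2B cells was sequenced as polyadenylated-RNA libraries. Reads were handled with bcl2fastq 2.17.1.14 and STAR 2.4.2a on GRCh38, per the submitters' processing notes. No source used here gives the quantifier, the annotation or the use of strand, so overlapping genes and antisense partners may share reads. The values are a non-negative signal per gene, deposited by the authors under the name TPM. The sums of the 10 columns ran from 884674 to 1078094, unlike the fixed sum of TPM, so the scale is not exactly TPM and read depth is unknown. Values were used as deposited. The test planned for TPM was kept because it works on a log scale.

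Of 160 columns 150 were used. The other 10 were left out, 6 because they are headed 8 h and 4 because they hold no values. Genes with a value of 1 or more in at least 5 libraries were kept (14827 of 29273). Values were taken as log2(value + 1), and limma 3.58.1 (R 4.3.3, with the data.table package in version 1.17.8) was fitted to 150 libraries in 32 groups, with a trend in the variance and 118 residual degrees of freedom. Genes were called at a Benjamini-Hochberg adjusted p below 0.05 within each comparison. The model was checked on simulated data whose noise was independent between libraries. That check could not cover deviations shared by same-numbered libraries. The contrasts at 1 h, of carbachol against vehicle and of mometasone with carbachol against mometasone were added later. Python 3.11.15, numpy 2.4.6, pandas 2.3.3 and matplotlib 3.10.9 were used for the rest. Coordinates are those of GENCODE 29 (GRCh38), matched by symbol. MARCHF10 found no match.

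The comparison and all gene lists were chosen with earlier results of these data known. Named genes are the 14 largest rises and 12 largest falls among called genes whose 5 pairs all differed in that direction, up to 4 members of each list with the largest change, the receptor genes, and up to 8 or 6 genes for the differences between backgrounds or times. Some genes that the rule names are not reported here. Genes named beyond that rule were chosen after their values were seen.

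Same-numbered libraries had correlations over genes of 0.11 to 0.578 at 2 h, 0.261 to 0.806 at 18 h (4 pairs) and -0.127 to 0.572 at 6 h. At none of these times did every library correlate best with its own number. Replicates 3, 4 and 5 did so at 2 h, replicates 1, 4 and 5 at 6 h, and replicates 2, 3 and 5 at 18 h. Counts with the replicate number as a block are therefore also given. The labels do not say what a number marks. 16 alternatives were run.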

Additional observations from a re-analysis of the deposited data

Results flagged for a closer look

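In 5 of 56 sets of 5 libraries tested 1 library stood apart from the others by Dixon's test, which chance does in about 1 in 20. MT1X was at 587.8 in replicate 1 with mometasone and carbachol, beside 790 to 874 in the others, and at 66.38 in replicate 5 with carbachol alone, beside 32.7 to 38.4. IP6K3 was at 2.41 in replicate 5 with carbachol alone, beside 0.7 to 1.04. NPPB was at 72.11 in replicate 1 with carbachol alone, beside 96.3 to 108. FOSL1 was at 15.36 in replicate 2 with mometasone and carbachol, beside 11.9 to 12.4.

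The change with mometasone differed between 6 and 2 h, by limma's test of the difference, in 28 genes named here. The differences, 6 h minus 2 h on the log2 scale, were positive for CYP4B1 (3.05), CNR1 (2.97), CACNA2D3 (2.72), SAA1 (2.57), NKD1 (2.38), PLA2G4A (2.37), MAOA (2.02), SH3RF3 (2.0), FKBP5 (1.78), MARCHF10 (1.63), CDKN1C (1.58), SCNN1A (1.56), IP6K3 (1.49), FRZB (1.48) and TGFBR3 (1.37). Among genes that fell at 6 h they were negative for NPPB (-2.64), TM4SF1 (-1.68), F3 (-1.58), HTR1D (-1.54), CCL2 (-1.32), FOSL1 (-1.30), CCN1 (-1.24), DUSP5 (-1.17), VGLL2 (-1.10), CCND1 (-0.99), NEDD4L (-0.86) and DNAJA1 (-0.53). GADD45A, which rose at 6 h, had a difference of -0.63.

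Between 18 and 6 h the change differed, by the same test, in 15 genes named here. The differences, 18 h minus 6 h on the log2 scale, were -2.15 for UBE2QL1, -2.14 for MT1X -1.78 for VCL, -1.34 for THBD, -1.33 for MT2A, -1.30 for SH3RF3 and -0.94 for PER1, which had risen at 6 h. SAA2 and FRZB, which had also risen, had differences of 1.27 and 0.78. For CPA4, PSG5, DYSF and KIRREL3, which had fallen at 6 h, they were -2.52, -1.99, -1.62 and -1.53. For PLAT, not called at 6 h, the difference was -2.04. For TRIM29 the difference was -1.63, from a small rise at 6 h to a fall.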

How the results depend on the processing

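With the replicate number as a block the count at 6 h was 3723 in place of 1493, 1842 higher and 1881 lower (49.5% higher in place of 55.6%), 3715 for mometasone alone, 864 at 2 h, 3451 at 18 h, 1088 for the difference between 6 and 2 h and 796 for that between 18 and 6 h. Of 30 named genes not called at 6 h, 14 were called with the block, among them HMGCS1 (adjusted p = 2.6e-13), PLAT (2.22e-06), RELB (0.000194), EGR1 (0.00197) and PTGES. The block with only the compared groups gave 2840 for mometasone alone, 2726 at 18 h, 485 and 423 for the differences. The numbers were not shown to pair all libraries at 2, 6 or 18 h. At 6 h same-numbered libraries had correlations of -0.127 to 0.572, and replicates 2 and 3 did not correlate best with their own number. The same held for replicates 1 and 2 at 2 h and for replicate 4 at 18 h. For mometasone alone at 6 h the same-numbered correlations were 0.019 to 0.665. Leaving out 1 replicate in turn gave 916 to 1616 at 6 h, 894 to 1464 for mometasone alone, 0 to 0 for the difference with and without carbachol, 234 to 274 at 2 h, 98 to 182 between 6 and 2 h, 985 to 1573 at 18 h and 74 to 122 between 18 and 6 h. The lowest counts came without replicate 2, except at 2 h. Without the filter on low values the difference with and without carbachol called 1 gene, OCA2. A fit of the compared groups alone called 206 at 2 h, and scaling each library to the same sum 118 between 6 and 2 h. The cause was not tested. Of 113 named genes called at 6 h, 95 kept the call under each of 16 alternatives, all 26 largest changes among them, and 0 reversed. The log2 change of 16 moved by over 1.5 times with a pseudocount of 0.1. The mitochondrial difference ran from 0.0543 to 1.74 points without 1 replicate. Its alternative without ribosomal RNA genes was not run, since those genes are not analysed here. Read depth is unknown, so low genes carry an unknown counting error.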
